A study of Rattus norvegicus with 6 samples.

Results

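miR-221 and miR-222 were followed in testis small RNA of rats with and without diabetes. Every row of the expression table named miR-221 or miR-222, from either arm of the hairpin, was taken, and 4 of the 721 listed miRNAs matched: miR-221-3p, miR-221-5p, miR-222-3p and miR-222-5p. The series holds 6 whole-testis libraries of Sprague-Dawley rats, 3 labelled STZ-induced diabetes and 3 labelled normal. Diabetes had lasted 8 weeks in the first group. The study's methods state that the diabetic rats were fed a high-fat diet and then injected once with streptozotocin (STZ), a drug toxic to pancreatic beta cells. Control rats were given citrate buffer, and the methods do not state their diet. The rats were adult males, and no age in weeks was given in the sources used here. All libraries were made from whole tissue, so fewer cells of a type and less of an miRNA per cell cannot be told apart. Library totals ran from 305476 to 549446 reads over the listed miRNAs, and the deepest diabetic library was replicate 3. Abundance is given in CPM, an miRNA's share of all listed miRNA reads in its library, scaled to a common total. Where a value is given for each library, the order is replicate 1, 2 and 3. No library was made from sorted spermatogonia, and miR-34c-5p, a marker of meiotic and later germ cells, stood at 286986 ± 10910 CPM in the diabetic group and 295956 ± 24822 CPM in the normal group (SD, n = 3 each).

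miR-221 and miR-222 are processed from neighbouring hairpins of a shared primary transcript on the X chromosome. Their 3p arms carry the same seed, the stretch near the 5′ end that pairs with target mRNAs, so they are treated as one family of target regulators. In the testis the pair is known to keep spermatogonia undifferentiated by repressing Kit, the receptor for stem cell factor that spermatogonia gain when they differentiate. The pair is also made in blood vessel walls, where it restrains the proliferation of endothelial cells and promotes that of smooth muscle cells.

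The mature sequences are shown because the shared seed defines the family. They are RefSeq entries of assembly GRCr8, which held all 4 members. Bases 2 to 8 are in capitals.
miR-221-3p: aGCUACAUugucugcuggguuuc
miR-222-3p: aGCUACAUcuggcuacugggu
miR-221-5p: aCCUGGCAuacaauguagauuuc
miR-222-5p: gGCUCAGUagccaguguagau

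miR-221-3p and miR-222-3p started with the same 8 bases. Compared position by position with no gaps, 11 of the 21 bases that both hold were the same and 10 differed, all after the seed. The 5p arms, compared the same way, shared 5 of 21 bases and had different seeds. Stretches shared at an offset are not counted, so these values do not measure how alike the arms are beyond the seed. No other rat miRNA in the RefSeq table had the seed of the 3p arms or of either 5p arm.

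The hairpins are shown to place both arms of each precursor, with the mature arms in capitals. Mir222 lies at chrX:6022621-6022723 and Mir221 at chrX:6023182-6023290, both on the plus strand of GRCr8, with 458 bases between them. RefSeq places both inside the span of 2 long non-coding RNA genes, LOC120099382 on the same strand and LOC120099384 on the opposite one.
Mir222: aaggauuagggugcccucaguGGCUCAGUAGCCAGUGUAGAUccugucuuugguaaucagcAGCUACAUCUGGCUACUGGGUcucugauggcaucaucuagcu
Mir221: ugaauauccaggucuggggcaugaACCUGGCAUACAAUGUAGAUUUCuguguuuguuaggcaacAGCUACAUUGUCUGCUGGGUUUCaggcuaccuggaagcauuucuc

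The 4 members differed widely in level. Together they held 3909 of 2690909 reads, or 0.145%. miR-221-3p supplied 3297 of these reads and ranked 68 of 721 by mean level, at 1244 CPM. miR-222-3p had 345 reads and ranked 179, at 128 CPM. miR-221-5p had 266 reads and ranked 193, at 97.9 CPM. miR-222-5p had 1 read, in diabetic replicate 3, and was listed at 0 in the other 5 libraries. A count of 0 allows up to 9.82 CPM in the shallowest library and 5.66 CPM in the deepest normal library, where 3 reads is taken as the limit and counting error alone is covered. The step from miR-221-3p to miR-222-3p was far larger than the spread between libraries. The neighbours miR-222-3p and miR-221-5p were close: miR-222-3p was the higher in 6 of 6 libraries, by 1.13-fold to 1.48-fold, while within each single library their 95% counting intervals (exact Poisson) overlapped.

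**Figure D1:**
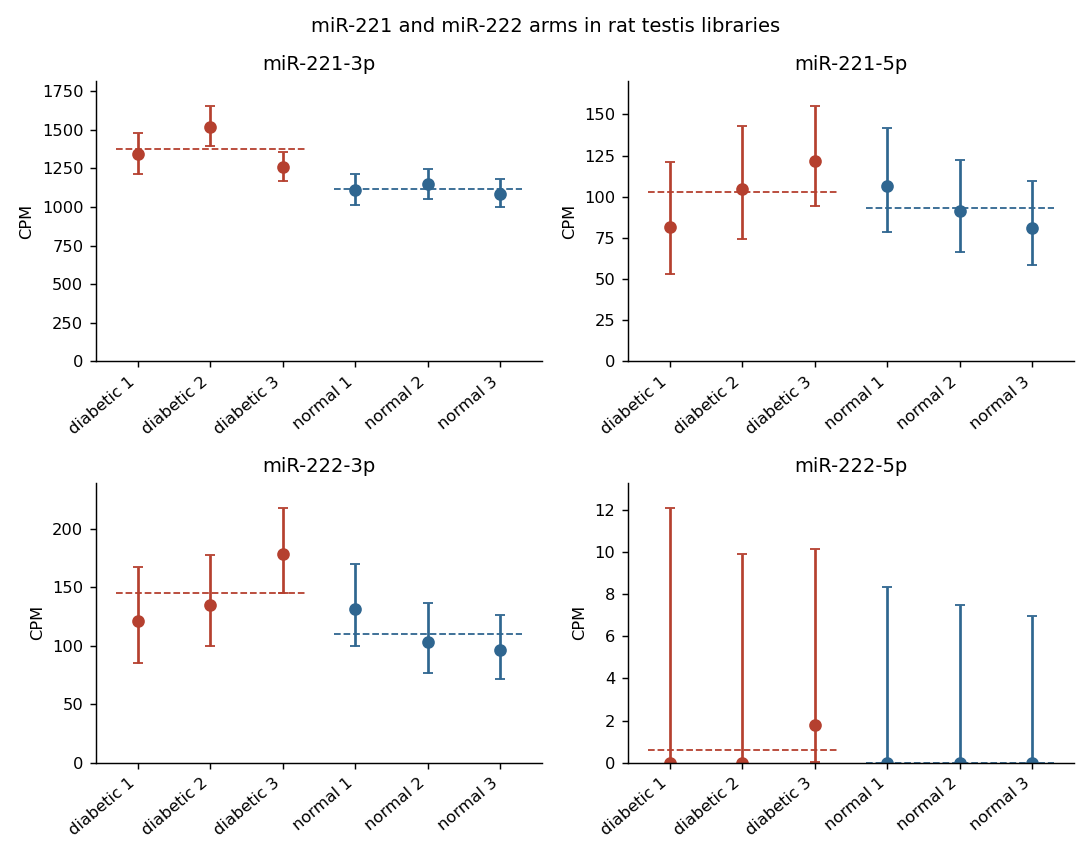
CPM of the 4 members (y axes from 0, each panel with its own scale) in the 3 diabetic (red) and 3 normal (blue) libraries, with exact Poisson 95% intervals on the reads as bars and group means as dashed lines. The miR-221-3p points of the diabetic libraries, from 1258 to 1521 CPM, lie above those of the normal libraries, from 1087 to 1147 CPM, while the groups overlap for miR-221-5p and miR-222-3p.

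The design compares diabetic with normal testis. miR-221-3p, the main product of the pair in these libraries, was higher in each diabetic library than in each normal one, but the difference did not pass the test adjusted over all miRNAs. Its level was 1342, 1521 and 1258 CPM in diabetic replicates 1, 2 and 3, from 410, 566 and 691 reads. In normal replicates 1, 2 and 3 it was 1108, 1147 and 1087 CPM, from 489, 565 and 576 reads. The groups did not overlap, and replicate 2 was the highest of the diabetic libraries. The counting interval of diabetic replicate 2, from 1399 to 1652 CPM, lay above the intervals of the 3 normal libraries, which ended at 1246 CPM or lower. That of diabetic replicate 1 began at 1215 CPM and overlapped that of normal replicate 2 but not those of normal replicates 1 and 3. That of diabetic replicate 3 began at 1166 CPM and overlapped all 3.

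Mean miR-221-3p was 1374 ± 135 CPM with diabetes and 1114 ± 30.6 CPM without (SD, n = 3 each). On the log2(CPM + 1) scale the difference was 0.30 with a standard error of 0.12, and its 95% interval ran from 0.05 to 0.55, which is 1.23-fold with an interval from 1.03-fold to 1.46-fold. The unadjusted p in limma was 0.0225, rank 32 among 578 tested miRNAs, and the adjusted p was 0.406. The exact permutation test over libraries gave p = 0.1, the smallest that 3 against 3 allows. Of the 578 tested miRNAs, 46 (7.96%) were higher in diabetes with groups that did not overlap, 32 (5.54%) were higher with an unadjusted p under 0.05, and 0 (0%) had an adjusted p under 0.05 in limma, against 51 in both directions at an unadjusted p under 0.05. Of the 3 members tested, 1 was in each of these first 2 sets, miR-221-3p, and 0 had an adjusted p under 0.05. The 32 higher and 19 lower miRNAs at an unadjusted p under 0.05 became 29 and 31 with TMM factors, 30 and 30 with DESeq2 size factors and 16 and 41 with upper-quartile factors. The median log2 difference over all tested miRNAs was 0.0046.

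The normal spread of miR-221-3p was narrow, with a coefficient of variation of 2.75%. Counting alone gives 3.80% to 4.94% at these depths, so the normal libraries lay closer together than counting alone gives. The diabetic coefficient of variation was 9.80%, above the counting range. The unadjusted p of miR-221-3p in limma was 0.0834 without diabetic replicate 2, 0.0502 without normal replicate 3 and 0.166 with upper-quartile factors, which moved the median of all miRNAs to -0.10.

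miR-222-3p, which shares the target seed of miR-221-3p at a lower level, had overlapping groups. It stood at 121, 134 and 178 CPM in diabetic replicates 1, 2 and 3, from 37, 50 and 98 reads. In normal replicates 1, 2 and 3 it stood at 132, 104 and 96.2 CPM, from 58, 51 and 51 reads. Diabetic replicate 3 was the highest and normal replicate 1 was above diabetic replicate 1. Means were 145 ± 29.99 CPM for the diabetic group and 110 ± 18.6 CPM for the normal group (SD, n = 3 each). The log2 difference was 0.38 with a standard error of 0.24 and a 95% interval from -0.13 to 0.89 (limma adjusted p = 0.726; exact permutation p = 0.2). This interval holds both no difference and a difference larger than that of miR-221-3p. Without diabetic replicate 3 the log2 difference was 0.22, and leaving out each other library gave 0.29 to 0.51.

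miR-221-5p, the less abundant arm of the miR-221 hairpin, showed no difference beyond its spread. It was at 81.8, 105 and 122 CPM in diabetic replicates 1, 2 and 3, from 25, 39 and 67 reads. In normal replicates 1, 2 and 3 it was at 107, 91.4 and 81.1 CPM, from 47, 45 and 43 reads. Diabetic replicate 1 lay between normal replicates 3 and 2, so the groups overlapped. Means were 103 ± 20.1 CPM for the diabetic group and 93.0 ± 12.8 CPM for the normal group (SD, n = 3 each). The log2 difference was 0.13 with a standard error of 0.26 and a 95% interval from -0.42 to 0.69 (limma adjusted p = 0.846; exact permutation p = 0.6). Its spread was within what counting gives: coefficients of variation were 19.6% and 13.7%, and counting alone gives 12.2% to 20.0%. The log2 difference was 0.0026 without diabetic replicate 3 and 0.04 without normal replicate 3, and 0.29 without diabetic replicate 1 and 0.23 without normal replicate 1.

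**Figure D2:**
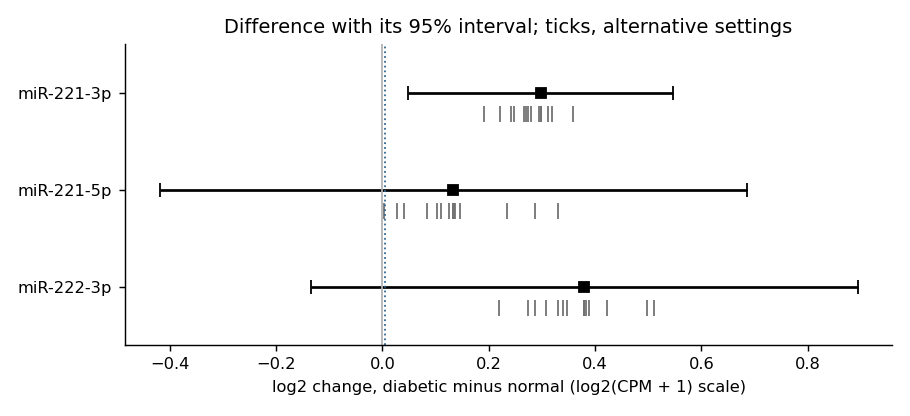
Log2 difference between diabetic and normal libraries on the log2(CPM + 1) scale (x axis) for the 3 members tested, as squares with 95% intervals from limma, and the same difference under the 17 other settings as grey ticks. Ticks of settings that change only the variance model, the filter or the block have the value of the square by construction. The solid grey line marks no difference and the dotted line the median of all tested miRNAs. All squares and ticks lie at positive values, and the interval of miR-221-3p, from 0.05 to 0.55, is the one of the 3 that does not reach 0.

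miR-222-5p did not enter the test, since it had reads in 1 library. Its 1 read out of 346 reads of the miR-222 hairpin makes 0.289%, with an exact binomial 95% interval from 0.00732% to 1.60%. The arms of miR-221 were less one-sided. The 5p arm held 266 of 3563 reads, or 7.47%, with an interval from 6.62% to 8.38%. The intervals of the 2 hairpins did not overlap. These compare reads pooled over the 6 libraries and cover counting error only.

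The share of the 5p arm within miR-221 does not depend on library scaling. It was 5.75%, 6.45% and 8.84% in diabetic replicates 1, 2 and 3, and 8.77%, 7.38% and 6.95% in normal replicates 1, 2 and 3. The groups overlapped, at 7.01% ± 1.62 and 7.70% ± 0.952 (SD, n = 3 each). The exact binomial interval of the lowest library ran from 3.75% to 8.37%, and that of the highest from 6.92% to 11.1%. These intervals overlapped, which is not a test of difference, and single libraries were not tested against each other.

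Within the seed family, miR-221-3p supplied nearly all reads in both groups. Its share of the reads of the 3p arms was 91.7%, 91.9% and 87.6% in diabetic replicates 1, 2 and 3, and 89.4%, 91.7% and 91.9% in normal replicates 1, 2 and 3. Mean shares were 90.4% ± 2.44 with diabetes and 91.0% ± 1.39 without (SD, n = 3 each), closer than the spread within either group. Expressed as a ratio, miR-221-3p exceeded miR-222-3p from 7.05-fold in diabetic replicate 3 to 11.3-fold in diabetic replicate 2. The ratio of miR-222-3p to miR-221-5p, products of different hairpins, was 1.48, 1.28 and 1.46 in diabetic replicates 1, 2 and 3, and 1.23, 1.13 and 1.19 in normal replicates 1, 2 and 3. These did not overlap between groups, and the ratio, which combines scarce members, was not tested. The summed level of the seed family was 1463, 1656 and 1436 CPM across the diabetic libraries, against 1240, 1251 and 1183 CPM across the normal ones. Those groups did not overlap, and since miR-221-3p makes up most of the sum, this adds nothing independent to its own values.

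**Figure D3:**
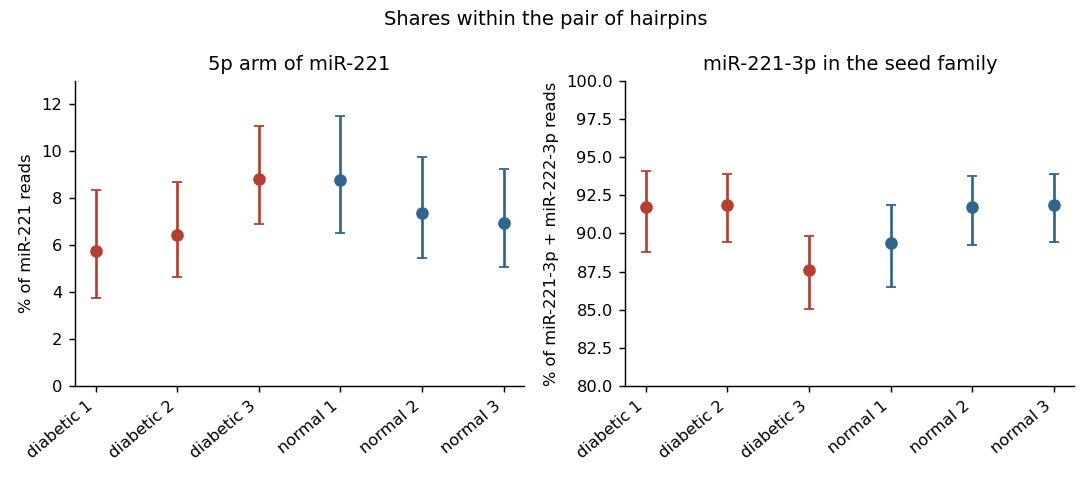
Left, reads of the 5p arm as a percent of all miR-221 reads, on an axis from 0. Right, miR-221-3p as a percent of miR-221-3p and miR-222-3p reads together, on an axis that does not start at 0. Points are the 3 diabetic (red) and 3 normal (blue) libraries with exact binomial 95% intervals, and in both panels the groups overlap, with diabetic replicate 3 at 8.84% on the left and 87.6% on the right.

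The members ordered the libraries differently. Over the 6 libraries, Pearson's r of log2(CPM + 1) was 0.43 between miR-221-3p and miR-222-3p, 0.22 between miR-221-3p and miR-221-5p, and 0.87 between miR-222-3p and miR-221-5p. miR-221-3p was highest in diabetic replicate 2, while the other 2 were highest in diabetic replicate 3. The points share their library, its depth and its scaling, and the spread of miR-221-5p was within its counting range, so these values are a description.

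The 254 non-members holding 10 or more reads in each library were ranked by the same correlation. The 5 closest in pattern to miR-221-3p over the 6 libraries were miR-7a-5p (r = 0.94), miR-298-3p (r = 0.94), miR-202-5p (r = 0.91), miR-29a-3p (r = 0.91) and miR-201-5p (r = 0.90). miR-7a-5p was at 4920, 5435 and 4809 CPM across the diabetic libraries, against 4349, 4391 and 4610 CPM across the normal ones, with its highest value also in diabetic replicate 2. Closest to miR-222-3p were miR-181a-1-3p (r = 0.93), miR-146b-5p (r = 0.88), miR-664-3p (r = 0.87), miR-23b-3p (r = 0.87) and miR-99b-5p (r = 0.86). The lists of 5 had no miRNA in common. They are the top of 254 correlations over 6 points, and no p is attached to them.

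Other miRNAs known from undifferentiated spermatogonia were mostly lower with diabetes by sign. Of 8 tested, 1 was higher and 7 lower in diabetes by sign. The counts were the same with TMM, DESeq2 size and upper-quartile factors. Those scalings moved the median of all tested miRNAs down, to -0.045, -0.027 and -0.10. Lower signs that stay lower under them are therefore no further support. In the main fit the lower ones included miR-182, at 1 to 12 reads a library, and miR-183-5p, at 3 to 12. For miR-183-5p the log2 difference was -0.064, while its mean CPM was higher with diabetes, at 18.8 against 15.9. At an unadjusted p under 0.05, 0 were higher and 2 lower, and 0 had an adjusted p under 0.05 (limma). Over all 578 tested miRNAs, 19 (3.29%) were lower at that unadjusted p. With TMM factors 2 of the 8 and 5.36% of all were lower, and with upper-quartile factors 5 of the 8 and 7.09% of all. The median log2 difference was -0.20, against 0.0046 over all tested miRNAs. A fall by sign was not particular to this list, since the 8 blood cell miRNAs had a median of -0.28. miR-21-5p, abundant in many cell types, was at 45365, 40234 and 44467 CPM across the diabetic libraries, against 53706, 48531 and 48345 CPM across the normal ones, a log2 difference of -0.21 (limma adjusted p = 0.406). The summed level of the list ran from 53270 to 57501 CPM in diabetic and from 61572 to 67299 CPM in normal libraries, without overlap. Since miR-21-5p makes up most of that sum, the sum adds nothing independent. miR-20a-5p, of the miR-17-92 cluster, averaged 6763 ± 594 CPM with diabetes and 7950 ± 847 CPM without (SD, n = 3 each). miR-17-5p of the same cluster averaged 2143 ± 263 and 2428 ± 249 CPM. The member higher by sign was miR-146b-5p, also among the 5 closest in pattern to miR-222-3p, with a log2 difference of 0.16 and overlapping groups. Members of this list are expressed in other testis cells as well.

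Of the other miRNAs known to repress Kit, 3 of 4 were listed and 2 tested. Neither passed at an unadjusted p under 0.05. miR-34a-5p, a p53-induced miRNA, was at 2720, 3252 and 2799 CPM across the diabetic libraries, against 2713, 2320 and 2950 CPM across the normal ones, and its groups overlapped. miR-494-3p was at 26.2, 56.4 and 38.2 CPM across the diabetic libraries, against 15.9, 30.5 and 30.2 CPM across the normal ones, also with overlapping groups. miR-193b-3p had a single read in the 6 libraries. miR-34a-5p was above miR-221-3p in 6 of 6 libraries. Kit mRNA itself was not analysed here.

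miRNAs of other testis cells were read beside the pair, because miR-221 and miR-222 are also made outside the germ line. The endothelial miRNA miR-126a-3p was higher in each diabetic library, at 10747, 10362 and 12524 CPM, than in each normal one, at 8141, 9933 and 7338 CPM. Its log2 difference was 0.41 with a standard error of 0.11 (limma unadjusted p = 0.00255, adjusted p = 0.348). The other arm, miR-126a-5p, had overlapping groups at 1291 ± 59.7 and 1181 ± 132 CPM (SD, n = 3 each). Both endothelial markers were well above 0, and their summed level ran from 11722 to 13783 CPM in diabetic and from 8662 to 11086 CPM in normal libraries. Since miR-126a-3p makes up most of that sum, it adds nothing independent. The part of vessel cells in the level of miR-221-3p was not tested.

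miR-202-5p was taken here as a Sertoli cell miRNA, though it is known from germ cells as well. It was at 3977, 4322 and 4020 CPM across the diabetic libraries, against 3103, 3575 and 3341 CPM across the normal ones, again without overlap. Its log2 difference was 0.30, close to that of miR-221-3p (limma unadjusted p = 0.00764, adjusted p = 0.348), and its unadjusted p was 0.0960 with upper-quartile factors. Its other arm, miR-202-3p, differed by -0.18 with overlapping groups. The summed level of both arms, mostly miR-202-5p and so not independent of it, ran from 4102 to 4467 CPM in diabetic and from 3262 to 3693 CPM in normal libraries. miR-202-5p was also among the 5 miRNAs closest in pattern to miR-221-3p. The part of Sertoli cells or germ cells in the level of miR-221-3p was not tested either.

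**Figure D4:**
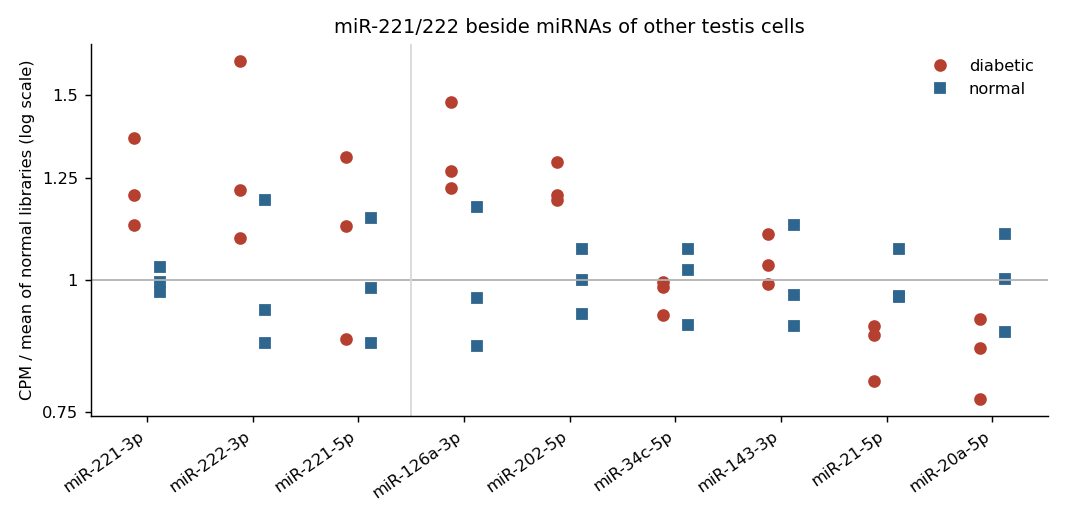
CPM of each library divided by the mean of the 3 normal libraries (log y axis, labelled as a ratio) for the 3 members tested, left of the vertical line, and 6 miRNAs of the lists. Circles are diabetic and squares normal libraries. The diabetic circles of miR-221-3p, from 1.13 to 1.37, of miR-126a-3p, from 1.22 to 1.48, and of miR-202-5p, from 1.19 to 1.29, lie above their normal squares, and those of miR-21-5p lie below.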

How the data were processed

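Small RNA from rat testis was sequenced as single-end reads. According to the study's methods, adaptors were removed, small RNAs counted and known miRNAs annotated by miRBase family. The authors deposited 1 table of CPM values, rounded to 1 decimal and headed TPM, with no length term. The submitters' processing notes name Bowtie 0.12.2, HISAT2 2.0, StringTie 1.3.0 and the mouse build mm8, with no role. The rat build and miRBase release were not given in the sources used here. The labelled extraction protocol is one for poly(A) mRNA and was not followed.

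Whole reads were recovered as the smallest library total that made every value a whole number within 0.05 CPM, which held for 100% of values. The main test was limma 3.58.1 (eBayes with trend, R 4.3.3) on log2(CPM + 1) over the 578 miRNAs with at least 1 CPM in 3 libraries, with Benjamini-Hochberg adjustment. Single values were compared by two-sided exact permutation. edgeR 4.0.16 and DESeq2 1.42.0 on recovered reads were alternatives. Scripts were tested on simulated data. Intervals on reads cover counting error only, since no molecular identifiers were stated. Libraries were grouped by their titles. Nothing in the labels says that each came from a separate rat, so p-values measure the spread between these samples. Named miRNAs were the members, the 5 closest in pattern to each 3p arm, and up to 3 of each list, those with the most reads. Beyond that rule, miR-182, miR-183-5p and miR-223-3p were named for their few reads. miR-150-5p was named as higher by sign, as was miR-146b-5p, which was also among the 5 closest to miR-222-3p. The members and lists were chosen with earlier results of these data known.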

Additional observations from a re-analysis of the deposited data

How the results depend on the processing

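Each of the 3 members kept a positive log2 difference and an adjusted p over 0.05 in its 17 alternatives: from 0.19 to 0.36 for miR-221-3p, 0.0026 to 0.33 for miR-221-5p and 0.22 to 0.51 for miR-222-3p. Running eBayes without the trend, either other filter or the replicate block cannot move the log2 difference. Its sign under these settings is therefore no further support. The unadjusted p of miR-221-3p was under 0.05 in 12 of them and was 0.116 with eBayes without the trend, 0.166 with upper-quartile factors, 0.0719 with thinned reads, 0.0834 without diabetic replicate 2 and 0.0502 without normal replicate 3. The cause was not tested. Thinned reads were a single random draw down to the smallest library total, so another draw could give other values. For miR-221-5p, with 25 to 67 reads a library, thinning moved the difference from 0.13 to 0.33. Group differences of the shares moved by less than the pooled SD of the groups, but turned in sign for the 5p share of miR-221, from -0.69 to 0.45 percentage points with thinned reads, and for the seed-family share of miR-221-3p, from -0.60 to 0.81 without diabetic replicate 3. The count of miRNAs with an adjusted p under 0.05 went from 0 to 8 when eBayes was run with no trend, 2 with edgeR, and 1 when unfiltered, with 10 or more reads required in each library, TMM factors, upper-quartile factors, DESeq2 or the replicate block, and 0 to 1 without one replicate; no member was among them. The 51 miRNAs at an unadjusted p under 0.05 became 25 under that read minimum, where 257 were tested. Same-numbered libraries shared a number alone, with correlations of their deviations of -0.113, -0.0733 and -0.0568 over 296 miRNAs. With the replicate block, 44 were under 0.05 unadjusted, and miR-221-3p had an adjusted p of 0.475 in limma. Depth limits miR-222-5p most, at 1 read in all.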

Other observations

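The let-7 family, which rises as spermatogonia differentiate, was mixed: of 9 miRNAs tested, 5 were higher and 4 lower in diabetes by sign, 2 higher and 7 lower with TMM or upper-quartile factors and 3 higher and 6 lower with DESeq2 size factors. At an unadjusted p under 0.05 in limma there were 0 of the 9, and 1, lower, with upper-quartile factors, where 7.09% of all tested miRNAs were lower. With each other scaling the median log2 difference of all tested miRNAs fell as well. It was -0.045 with TMM, -0.027 with DESeq2 size and -0.10 with upper-quartile factors. let-7g-5p, the most abundant of them, averaged 27880 ± 1460 CPM with diabetes and 25105 ± 1751 CPM without (SD, n = 3 each). The miRNAs of meiotic and post-meiotic germ cells, miR-34b, miR-34c and miR-449, also had 0 of 5 tested at an unadjusted p under 0.05 in limma. By sign 2 were higher and 3 lower, or 1 higher and 4 lower with each other scaling. With TMM or upper-quartile factors 1 was lower at that unadjusted p, against 5.36% and 7.09% of all tested miRNAs. miR-34b-3p was lower in each diabetic library than in each normal one. Of all 578 tested, 86 did not overlap in either direction. Their summed level ran from 311912 to 333840 CPM in diabetic and from 306978 to 355976 CPM in normal libraries.

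Smooth muscle and peritubular miRNAs (miR-143 and miR-145, both arms) had 0 of 4 at an unadjusted p under 0.05, and their summed level ran from 85959 to 96015 CPM in diabetic and from 79267 to 97409 CPM in normal libraries. Of 8 blood cell miRNAs, 2 were higher and 6 lower in diabetes by sign, or 1 higher and 7 lower with each other scaling. Those scalings lowered the median of all tested miRNAs too. Their median log2 difference was -0.28. In limma 1 was lower at an unadjusted p under 0.05, against 19 (3.29%) of all 578 tested, and 0 were higher. The lower one was miR-142-3p of leukocytes, at 363, 304 and 349 CPM across the diabetic libraries, against 394, 522 and 479 CPM across the normal ones (limma adjusted p = 0.348). Log2 differences were -0.11 for miR-486, which had the most reads of the list, 0.011 for miR-451-5p and 0.20 for miR-150-5p, all with overlapping groups. The summed level of the blood cell list ran from 1132 to 1434 CPM in diabetic and from 1269 to 1498 CPM in normal libraries, and their defining markers were above 0 in every library except miR-223-3p, which had no reads in 3 of the 6.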
